A study of Mus musculus with 6 samples.

Results

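The cells described here were effector CD8 T cells of the mouse liver, picked from sorted CD45+ immune cells of mice that carried liver metastases. A cell counted as a member when 4 conditions held on the deposited scaled values: the mean of Cd8a and Cd8b1 (both chains of the CD8 co-receptor) was over 1.5, the mean of Cd3e, Cd3g, Trac and Trbc2 (parts of the T cell receptor complex) was over 0.5, the mean of Lef1, Tcf7 and Ccr7 (genes of naive T cells) did not exceed 1, and Cd79a (B cell receptor) stayed under 1. Of 23008 cells in 6 libraries, 422 were members (1.83%). Since these scores chose the members, the 10 genes of the rule are given as a description and nothing rests on them.

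The mice were Balb/c and had been injected into the heart with cells of 4T07, a line of mouse mammary tumour that grows in this strain. The tumour cells were either control (Ctrl) or carried an shRNA knockdown of Tim3 (Tim3-KD), the protein encoded by Havcr2, so that the knockdown lay in the injected cells and not in the host's lymphocytes. Liver pieces were taken at day 3 as tumour-free adjacent tissue, at day 3 as micrometastasis and at day 12 as macrometastasis, with a Ctrl and a Tim3-KD group for each. All 6 groups thus carried tumour cells somewhere in the body, and no mouse without tumour was included. Each group was 1 library made from a pool of mice, and age and sex were not given in the sources used here. The CD45 sort takes away tumour cells, so Havcr2 in these libraries does not check the knockdown.

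CD8 T cells recognise peptide on MHC class I and, once activated, become effectors that kill their target. They release perforin and granzymes from cytotoxic granules, display Fas ligand, and secrete interferon gamma and chemokines. Under lasting stimulation they take up inhibitory receptors such as TIM3, PD-1, CTLA4 and LAG3, and the liver holds resident T cells that carry CXCR6. Genes of this programme that the matrices do not hold, among them Pdcd1, Lag3, Tigit, Gzmk, Klrg1, Tbx21 and Cd44, were not analysed here.

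There were 18 members in Ctrl adjacent tissue, 8 in Tim3-KD adjacent tissue, 88 in Ctrl micrometastasis, 128 in Tim3-KD micrometastasis, 83 in Ctrl macrometastasis and 97 in Tim3-KD macrometastasis. The adjacent tissue libraries are therefore given as values only. A member's median total was 5826 UMIs (unique molecules counted over all genes) in Ctrl adjacent tissue, 9710 in Tim3-KD adjacent tissue, 4894 and 4684 in Ctrl and Tim3-KD micrometastasis, and 7675 and 6213 in Ctrl and Tim3-KD macrometastasis. Members were shallower than the whole of their library in micrometastasis, where library medians were 7531 and 9360 UMIs, and in adjacent tissue (8964 and 10248). The same held in Tim3-KD macrometastasis (7342.5), while Ctrl macrometastasis members were deeper than their library (6300).

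A level is stated below in CPM: the UMIs of a gene summed over the members of a library, per 1000000 UMIs of those members. A ratio is the level in 1 library over that in another. Intervals in brackets are 95% intervals, exact binomial for shares, conditional binomial for ratios and Poisson for levels. They cover counting error only, and cells of 1 pool share their source, so the conditions, with 1 library each at a site, were compared without tests or p-values.

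As a share of all cells, members made up 0.998% [0.593 to 1.57] of Ctrl and 1.48% [0.639 to 2.89] of Tim3-KD adjacent tissue. The share was 1.72% [1.38 to 2.12] in Ctrl and 2.49% [2.08 to 2.95] in Tim3-KD micrometastasis. In macrometastasis it was 1.69% [1.35 to 2.09] and 1.76% [1.43 to 2.15]. Tim3-KD micrometastasis held the largest of these 6 shares, by 0.766 points [0.197 to 1.34] over its Ctrl. The difference in macrometastasis was 0.0736 points [-0.446 to 0.587], within counting error. Without members that also held 3 or more UMIs of B cell, neutrophil, monocyte and macrophage or hepatocyte markers, it was 0.536 points [0.103 to 0.970] in macrometastasis and 0.593 points [0.0725 to 1.12] in micrometastasis. That set kept 46 of 83 Ctrl and 81 of 97 Tim3-KD members in macrometastasis, and 74 of 88 and 105 of 128 in micrometastasis. Its cut of 3 UMIs was not adjusted for depth. Of 236 monocyte and macrophage UMIs in Ctrl macrometastasis members, 86 were Ccr2 and 77 Ly6c2, which T cells can also express. Deeper T cells can thus be left out by the cut, here and wherever that set is used below.

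Among T cells (the same CD3 and Cd79a conditions), members took 19.7% [16.1 to 23.7] of 447 cells in Ctrl and 33.2% [28.6 to 38.2] of 385 cells in Tim3-KD micrometastasis. In macrometastasis both shares were near each other, at 17.5% [14.2 to 21.2] of 474 T cells and 17.0% [14.0 to 20.4] of 570 T cells. Adjacent tissue gave 10.2% [6.17 to 15.7] of 176 T cells and 6.5% [2.85 to 12.4] of 123 T cells. The remaining CD8 T cells, with Lef1, Tcf7 and Ccr7 above the same cut-off, are called naive-like here. Members made up 66.7% [57.9 to 74.6] of these CD8 cells in Ctrl and 83.7% [76.8 to 89.1] in Tim3-KD micrometastasis. They were 63.4% [54.5 to 71.6] and 62.2% [54.1 to 69.8] of them in Ctrl and Tim3-KD macrometastasis. The wider gap in micrometastasis thus appeared with all cells, all T cells and CD8 T cells as the denominator.

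**Figure D1:**
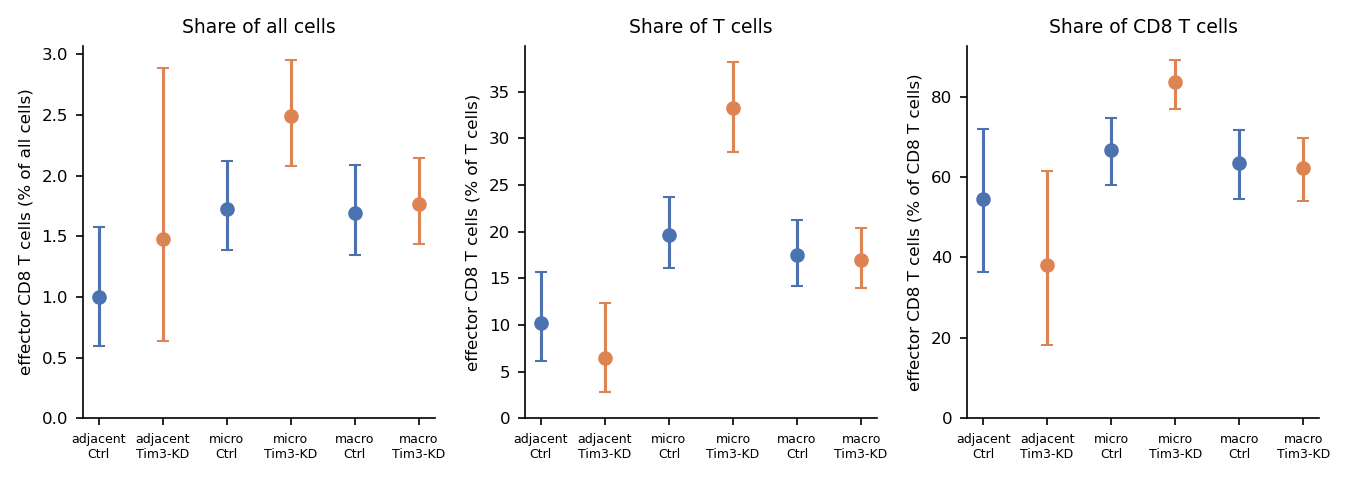
Share of effector CD8 T cells per library, in percent of all cells, of T cells and of CD8 T cells, for adjacent tissue (day 3), micrometastasis (day 3) and macrometastasis (day 12), Ctrl in blue and Tim3-KD in orange. Points are shares and lines their exact binomial 95% intervals. In micrometastasis Tim3-KD lies above Ctrl on each denominator (2.49% against 1.72% of all cells, 33.2% against 19.7% of T cells). The intervals there overlap for all cells (2.08 to 2.95 and 1.38 to 2.12) but not for T cells or CD8 T cells. In macrometastasis they overlap on each denominator.

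The cut-offs fell differently on each gene. The member nearest to the CD8 cut-off had a mean score of 1.75, 1.59 and 1.58 for adjacent tissue, micrometastasis and macrometastasis, and the nearest cells that missed only this condition scored 1.28, 1.48 and 1.39. On the naive genes, the nearest members stood at 0.991, 0.968 and 0.976, and 28, 69 and 107 cells of the 3 sites missed only that condition, the nearest at 1.16, 1.03 and 1.00. For the T cell receptor complex the nearest members stood at 1.14, 1.39 and 0.620 against -0.0737, -0.167 and 0.369 outside, and for Cd79a at 0.960, 0.474 and 0.968 against 1.58, 1.34 and 1.46. In molecules, the median member held 5 UMIs of Cd8a and Cd8b1 together in adjacent tissue and 6 at either metastasis site. A single CD8 UMI admitted 6 of 26 members of adjacent tissue, 17 of 216 of micrometastasis and 15 of 180 of macrometastasis. No UMI of Lef1, Tcf7 or Ccr7 was present in 65.4%, 91.2% and 71.1% of members. Scores were scaled within each site, so a cut-off is not the same molecule number at each site.

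The label was read against Ccl5 and Havcr2, since the CD8 genes belong to the rule and do not bear on it. As a description, both CD8 chains were detected together in 67 of 88 and 107 of 128 members of Ctrl and Tim3-KD micrometastasis, in 52 of 83 and 74 of 97 members of Ctrl and Tim3-KD macrometastasis, but in only 6 of 18 and 3 of 8 members of adjacent tissue. Ccl5, a chemokine of effector and memory lymphocytes, had a UMI in 87.5%, 92.2%, 86.7% and 84.5% of members of the 4 metastasis libraries in the same order, and in 94.4% and 75% in adjacent tissue. B cells, which should lack it, had a Ccl5 UMI in at most 11.1% of cells in any library. NK-like cells, defined under processing, held more Ccl5 than members in all 6 libraries (12315 to 23536 against 6029 to 16835 CPM). Ccl5 therefore does not set members apart from NK-like cells. Naive-like CD8 T cells were at 4.54 to 6003 CPM and other T cells at 1344 to 2714, and members lay above both in all 6 libraries. Havcr2, the other marker of the label, was present in a minority of members and was absent from Tim3-KD adjacent tissue. At least 1 Cd4 UMI was found in 4, 9, 5 and 5 members of the metastasis libraries, and 2 or more UMIs of Trdc, the gamma-delta receptor chain, in 4, 0, 4 and 1.

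RNA of other cell types was present in members at low levels. Markers of monocytes and macrophages (Csf1r, Cd14, C1qa, C1qb, Clec4f, Ccr2, Ly6c2 and, in macrometastasis only, Lyz2, of which T cells can also express Ccr2 and Ly6c2) reached 3 UMIs in 13.6% and 15.6% of members of Ctrl and Tim3-KD micrometastasis and in 39.8% and 13.4% of members of Ctrl and Tim3-KD macrometastasis. Their summed level in members was 139, 325, 225, 608, 293 and 132 CPM from Ctrl adjacent tissue to Tim3-KD macrometastasis, against 1587 to 8096 in whole libraries. Neutrophil markers were at 0 to 261 CPM, B cell markers at 32.1 to 501, dendritic cell markers at 12.5 to 252, hepatocyte markers at 13.2 to 54.9 and endothelial markers at no more than 7.13. Genes of NK cells and ILC1 (Ncr1, Klre1, Eomes and, in macrometastasis only, Klrb1c) reached 3 UMIs in 23.9% and 12.5% of micrometastasis members and in 9.64% and 20.6% of macrometastasis members, Ctrl first. In adjacent tissue they did so in 9 of 18 Ctrl and 4 of 8 Tim3-KD members, at 411 and 437 CPM against 112 to 221 in the metastases, and Ncr1, which marks NK cells and ILC1, had a UMI in 4 and 2 of these members. Monocyte and macrophage markers reached 3 UMIs in 16.7% and 62.5% of adjacent members. The part of such cells in the levels of adjacent tissue was not tested. Of the barcodes of all cells, 59 occurred in more than 1 library, and 1 of them belonged to a member.

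Prf1, Gzma, Gzmb and Nkg7, genes of killing, had UMIs in members of every library. Perforin (Prf1, on chromosome 10 at 61297833 to 61304680, plus strand, GRCm38) makes pores in the target membrane. Its level was 229.6 CPM in Ctrl and 37.5 in Tim3-KD adjacent tissue, 407 in Ctrl and 531 in Tim3-KD micrometastasis, and 247 in Ctrl and 299 in Tim3-KD macrometastasis. Prf1 was thus higher in micrometastasis than in macrometastasis in both conditions, and higher in Tim3-KD at both metastasis sites, by a ratio of 1.31 [1.11 to 1.54] and of 1.21 [1.00 to 1.46]. Without the members that held other cell types' markers, the macrometastasis ratio was 0.96 on the log2 scale in place of 0.27, and without the Tim3-KD member of most Prf1 the ratios were 1.15 [0.977 to 1.36] and 1.08 [0.891 to 1.31]. With the rule set on UMIs (1 or more of a CD8 gene and of a receptor complex gene, none of the naive genes or Cd79a) the macrometastasis log2 ratio was -0.25.

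Granzyme A and granzyme B are proteases that enter the target through those pores. Gzma (chromosome 13, 113093825 to 113100981, minus strand) was measured in adjacent tissue at 1106 CPM (Ctrl) and 2187 (Tim3-KD), in micrometastasis at 2120.2 and 3075, and in macrometastasis at 1232 and 1202, Ctrl first. Tim3-KD members of micrometastasis were higher by a ratio of 1.45 [1.35 to 1.55], and the interval of macrometastasis held 1 (0.975 [0.894 to 1.06]), with 0.765 and 1.16 when the member of most Gzma was left out of Tim3-KD or of Ctrl. Few cells carried these molecules: a Gzma UMI was found in 31 of 88, 38 of 128, 33 of 83 and 26 of 97 members of the metastasis libraries, and 1 member of Ctrl micrometastasis held 47.7% of its library's Gzma UMIs. Leaving out the member with most Gzma in each library moved the micrometastasis log2 ratio from 0.54 to 1.26. With the rule set on UMIs the macrometastasis log2 ratio was -1.28 in place of -0.04.

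Gzmb (chromosome 14, 56258838 to 56262260, minus strand) was spread over more of the members, with a UMI in 60 of 88, 90 of 128, 57 of 83 and 57 of 97 of them. From adjacent tissue over micrometastasis to macrometastasis its level was 2164, 1059 and 664 CPM in Ctrl and 2174, 997 and 541 CPM in Tim3-KD. Micrometastasis stood above macrometastasis in both conditions, and the adjacent values rest on 18 and 8 members, among which NK and ILC1 genes were more frequent. Tim3-KD over Ctrl came to 0.815 [0.719 to 0.923] in macrometastasis, while the micrometastasis libraries did not differ beyond counting error (0.941 [0.847 to 1.05]). Gzmf, a granzyme held by the macrometastasis matrix only, was found in 10 of 83 Ctrl and 22 of 97 Tim3-KD members at 96.8 and 126 CPM. These are lower bounds, since 6 and 16 of those cells lay at the cap of the deposited scores.

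Nkg7, a granule membrane protein that takes part in granule release, was the most widely detected of the killing genes, in 78 to 127 members of each metastasis library. It measured 3065 and 2768 CPM in Ctrl and Tim3-KD micrometastasis and 1452 and 2002 in macrometastasis. Tim3-KD was lower than Ctrl in the former (0.903 [0.849 to 0.961], a direction that flips when ratios are centred on all genes) and higher in the latter (1.38 [1.28 to 1.49]). Cst7, an inhibitor of granule cathepsins, gave ratios of 1.03 [0.815 to 1.31] and 1.71 [1.32 to 2.22]. Serpinb6b, a serpin of cytotoxic lymphocytes, was higher in Tim3-KD at both sites (1.35 [1.09 to 1.68] and 1.26 [1.05 to 1.52]). Death receptor ligands went the other way in micrometastasis, with ratios of 0.651 [0.474 to 0.895] for Fasl and 0.548 [0.335 to 0.890] for Tnfsf10, the gene of TRAIL.

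In all, 10 of 18 killing genes listed had 30 or more UMIs over the micrometastasis members of both conditions. The interval of the Tim3-KD over Ctrl ratio lay above 1 for 3 and below 1 for 4 of them, and none differed 2-fold. Over all 1059 genes with that many UMIs, 10.8% lay above, 17.1% below, 7.84% were at least 2-fold higher and 8.12% at least 2-fold lower. In macrometastasis 11 killing genes were measured and 5 lay above and 1 below, against 11.3% above and 9.74% below over 914 genes. The background of 2-fold differences there was 3.72% higher and 7% lower, and no killing gene was among them. Median log2 ratios of the list were -0.02 and 0.27, beside -0.18 and 0.03 over all genes tested. Centring the micrometastasis log2 ratios on their trimmed mean over all genes (-0.17) gave 0.70 for Gzma, 0.55 for Prf1, 0.08 for Gzmb and 0.02 for Nkg7. On the same centred scale Ccl5 stood at -0.46, Ccl4 at -0.74, Xcl1 at -1.84, Havcr2 at 0.88, Ctla4 at -0.42, Cxcr6 at -0.23, Klrd1 at -0.27 and Mki67 at 0.96.

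**Figure D2:**
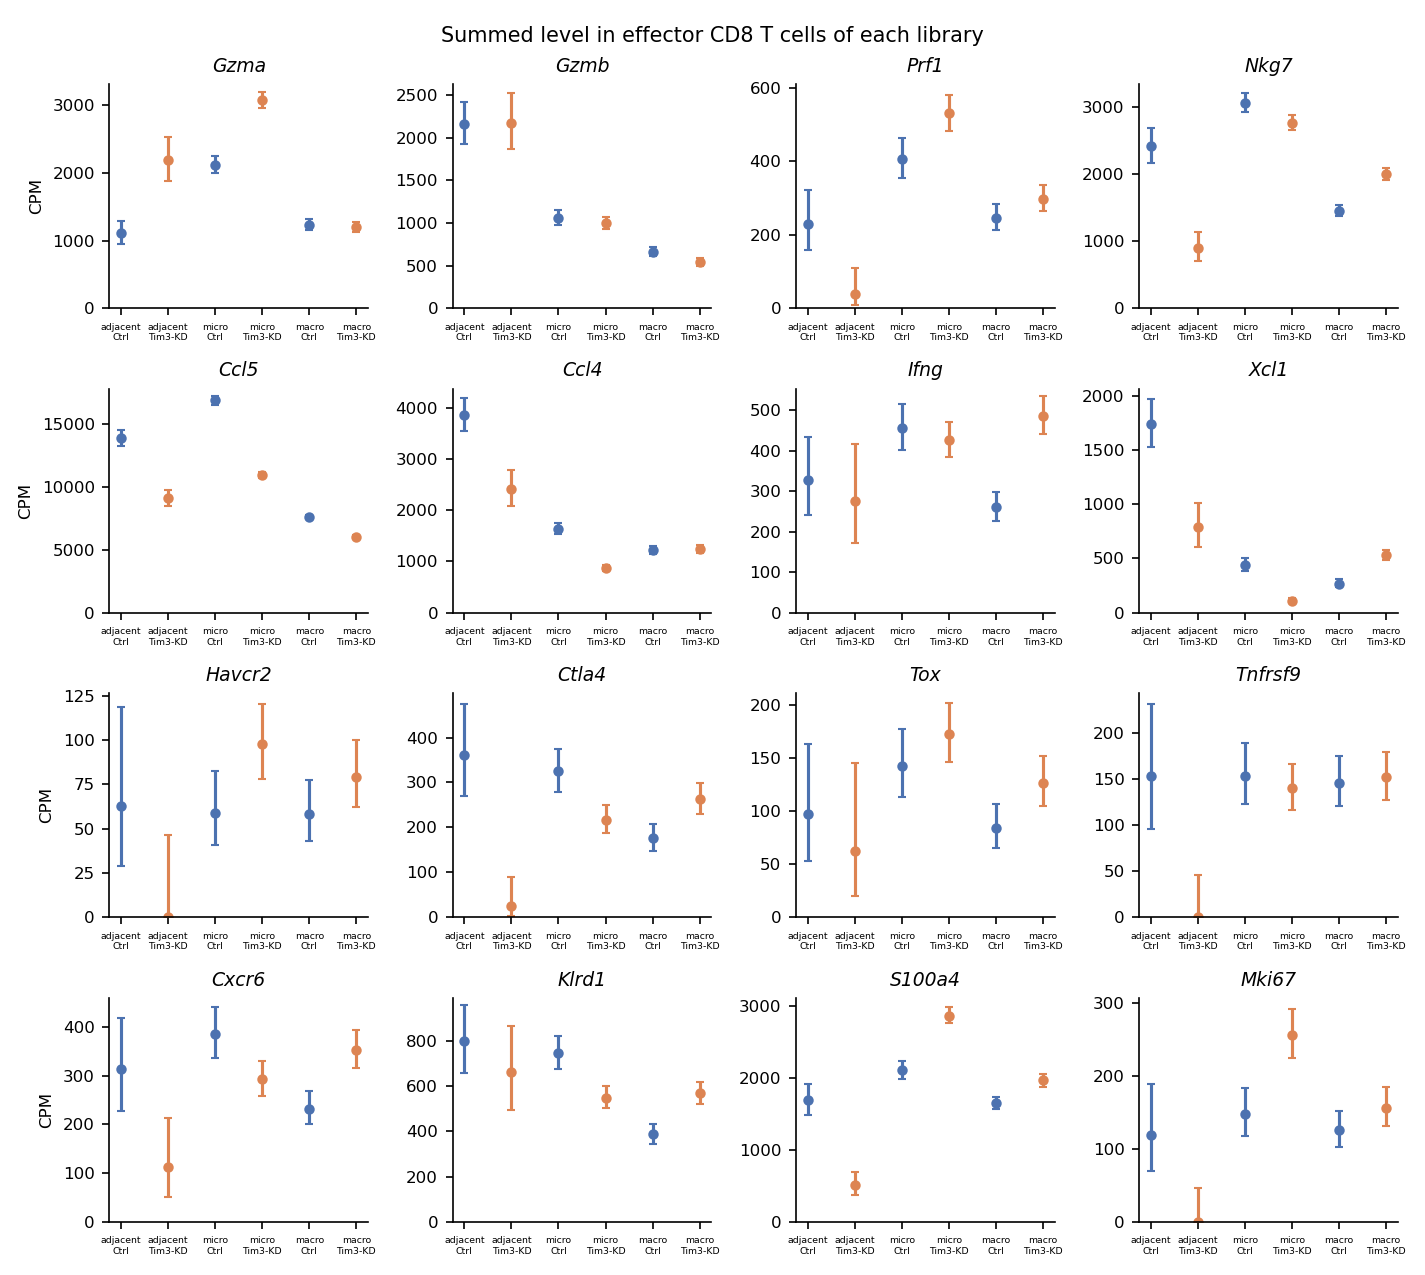
Level of 16 genes in effector CD8 T cells of the 6 libraries, in CPM, each panel with its own axis from 0, Ctrl in blue and Tim3-KD in orange. Points are summed levels and lines Poisson 95% intervals, and each library is 1 pool. Gzmb goes from 2164 in Ctrl adjacent tissue to 664 in Ctrl macrometastasis, and Xcl1 is lower in Tim3-KD than in Ctrl micrometastasis (109.8 against 442) but higher in macrometastasis (529.9 against 268).

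Among chemokines and cytokines made by the members, Ccl5, Ccl4, Ccl3 and Xcl1 were lower in Tim3-KD micrometastasis, and Spp1, most of it in 1 member, was higher. Ccl5 (chromosome 11, 83525778 to 83530518, minus strand), which attracts T cells and monocytes, measured 16835 CPM in Ctrl and 10927 in Tim3-KD micrometastasis, a ratio of 0.649 [0.631 to 0.668]. In macrometastasis it measured 7589 and 6029, a ratio of 0.794 [0.766 to 0.824]. Ccl5 was 13847 and 9073 in Ctrl and Tim3-KD adjacent tissue, values that rest on 18 and 8 members. The trimmed mean log2 ratio over all genes was -0.45 there, and that of Ccl5 centred on it was -0.16. Ccl4 and Ccl3, further chemokines of activated T cells, were at 1642 and 876 and at 351 and 188 CPM in Ctrl and Tim3-KD micrometastasis. Their ratios there were 0.533 [0.484 to 0.587] and 0.536 [0.433 to 0.662]. In macrometastasis both intervals held 1 (1.01 [0.927 to 1.10] and 0.973 [0.810 to 1.17]), and that of Ccl3 rested on single members, with 0.587 [0.475 to 0.725] without the top member of Tim3-KD and 1.29 [1.06 to 1.58] without that of Ctrl.

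Xcl1, the ligand by which lymphocytes attract XCR1-bearing dendritic cells, differed in opposite directions at the sites. Over adjacent tissue, micrometastasis and macrometastasis its level was 1739.6, 442 and 268 CPM in Ctrl, and 787, 109.8 and 529.9 CPM in Tim3-KD. Tim3-KD over Ctrl came to 0.248 [0.194 to 0.315] at day 3 in micrometastasis and to 1.98 [1.68 to 2.33] in macrometastasis. In Tim3-KD macrometastasis 1 member held 49.1% of the Xcl1 UMIs. Without the member of most Xcl1 in each library the macrometastasis log2 ratio was 0.48 in place of 0.98, and with the rule set on UMIs it was 0.12.

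Ifng (chromosome 10, 118441046 to 118445892, plus strand), which encodes interferon gamma, measured 456 and 426 CPM in Ctrl and Tim3-KD micrometastasis and 261 and 487 in macrometastasis. Micrometastasis libraries did not differ beyond counting error (0.932 [0.794 to 1.10]), and Tim3-KD was higher in macrometastasis (1.87 [1.58 to 2.21]). In that library 1 member held 27.4% of the Ifng UMIs, and with the rule set on UMIs the log2 ratio was -0.03 in place of 0.90. Tnf was low in both metastases, at 28.5 to 64.2 CPM, with ratios whose intervals held 1. Spp1, osteopontin, gave ratios of 2.79 [2.11 to 3.75] and 2.38 [1.60 to 3.62], but 1 member held 63.5% of it in Tim3-KD micrometastasis. Without the members that held other cell types' markers its log2 ratio there was 0.04 in place of 1.47. Of 8 measured genes of this list, 1 lay above and 4 below 1 in micrometastasis (10.8% and 17.1% over all genes), and 3 above and 1 below in macrometastasis (11.3% and 9.74%).

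Havcr2 (chromosome 11, 46454935 to 46481255, plus strand), the inhibitory receptor TIM3, stood at 62.6 CPM [28.6 to 119] in Ctrl adjacent tissue. No Havcr2 UMI was found among the 8 members of Tim3-KD adjacent tissue, which allows a level of up to 46.1. The level was 58.8 [40.5 to 82.6] in Ctrl and 97.5 [78.1 to 120.2] in Tim3-KD micrometastasis, and 58.3 [42.9 to 77.6] in Ctrl and 79.3 [62.1 to 99.9] in Tim3-KD macrometastasis. The Ctrl metastasis libraries were near each other and the Tim3-KD libraries above them, by 1.66 [1.10 to 2.55] in micrometastasis, while the interval of the macrometastasis ratio, 1.36 [0.929 to 2.01], held 1. A Havcr2 UMI was present in 20 of 88, 50 of 128, 16 of 83 and 32 of 97 members, or 22.7%, 39.1%, 19.3% and 33.0%. After each cell was thinned to 1500 UMIs to set depth equal, the shares were 7.95%, 12.5%, 8.43% and 9.28%. B cells gave no more than 0.196% thinned and 0.645% unthinned.

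The other genes of inhibition differed among themselves. Ctla4, which competes with CD28 for its ligands, measured 325 and 216 CPM in Ctrl and Tim3-KD micrometastasis and 176 and 262 in macrometastasis. Its ratio lay below 1 in the former (0.666 [0.541 to 0.820]) and above 1 in the latter (1.49 [1.20 to 1.84]). Tox, a factor of exhausted T cells, gave 1.21 [0.917 to 1.60] and 1.5 [1.10 to 2.06]. Cd160 did not differ beyond counting error at either site, and Cd200 was higher in Tim3-KD macrometastasis (1.62 [1.11 to 2.38]). The receptor-induced nuclear factors Nr4a1, Nr4a2 and Nr4a3 were lower in Tim3-KD micrometastasis, at ratios of 0.708 [0.525 to 0.956], 0.70 [0.568 to 0.864] and 0.357 [0.226 to 0.557]. In macrometastasis Nr4a1 alone of the 3 had an interval below 1 (0.432 [0.305 to 0.605]). Of 9 genes of this list measured, 1 lay above and 4 below 1 in micrometastasis, and 3 above and 1 below in macrometastasis, against the same 10.8% and 17.1%, and 11.3% and 9.74%, over all genes.

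Among genes of activation, Cd69, an early activation antigen that also retains T cells in tissue, was 276 and 152 CPM in Ctrl and Tim3-KD micrometastasis, a ratio of 0.551 [0.435 to 0.698]. Macrometastasis levels were 232 and 210.4, which did not differ beyond counting error. The costimulatory receptors Cd27 and Icos were also lower in Tim3-KD micrometastasis (0.657 [0.513 to 0.843] and 0.576 [0.418 to 0.793]). Cd27 and Cd28 were higher in Tim3-KD macrometastasis (1.5 [1.16 to 1.95] and 1.33 [1.09 to 1.63]). Tnfrsf9, the costimulatory receptor 4-1BB, lay between 140.0 and 153 CPM in all 4 metastasis libraries. Il2rb, the shared beta chain of the IL-2 and IL-15 receptors, likewise lay between 289 and 362. Of 15 measured genes 1 lay above and 4 below 1 in micrometastasis, beside 10.8% and 17.1% over all genes, and 4 above and none below in macrometastasis, beside 11.3% and 9.74%.

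Among genes of differentiation and survival, Klf2, a factor that keeps T cells in circulation, and its target S1pr1, the receptor for exit from tissue, were at 110.4 and 34.7 CPM in Ctrl and 54.0 and 9.91 in Tim3-KD macrometastasis. The ratios were 0.489 [0.338 to 0.70] and 0.285 [0.118 to 0.622]. Klf2 did not differ in micrometastasis (74.9 and 71.7). Il7r, the IL-7 receptor of long-lived T cells, was at 87.4 and 51.5 in Ctrl and Tim3-KD micrometastasis (0.590 [0.386 to 0.900]) and at 103 and 117 in macrometastasis. Bcl2, which protects from cell death, gave ratios of 0.695 [0.540 to 0.895] and 1.41 [1.12 to 1.80]. Id2, a regulator of effector cells measured at day 3 only, was 1089.5 and 1053 in Ctrl and Tim3-KD micrometastasis, and Bhlhe40 478 and 470.5. Of 14 genes measured in micrometastasis none lay above and 2 below 1, no more than the 10.8% and 17.1% over all genes, and of 12 in macrometastasis 3 above and 3 below, beside 11.3% and 9.74%.

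Homing and residency genes differed in both directions. Cxcr6, the receptor that holds T cells in liver sinusoids, measured 313, 385 and 232 CPM in Ctrl adjacent tissue, micrometastasis and macrometastasis, and 112, 292 and 353 CPM in their Tim3-KD counterparts. Its Tim3-KD over Ctrl ratio lay below 1 in micrometastasis (0.759 [0.631 to 0.913]) and above 1 in macrometastasis (1.52 [1.26 to 1.83]). Cxcr3, the receptor for interferon-induced chemokines, was lower in Tim3-KD micrometastasis (0.305 [0.160 to 0.559]). Ccr2, a chemokine receptor of monocytes and some T cells, was lower in Tim3-KD macrometastasis (0.392 [0.260 to 0.581]). Ccr2 is also a marker in the monocyte and macrophage list that was seen in 39.8% of Ctrl macrometastasis members, and the part of those cells in its ratio was not tested. S100a4, a calcium-binding protein of effector and memory T cells, was higher in Tim3-KD at both sites (1.36 [1.27 to 1.46] and 1.19 [1.11 to 1.28]). As a mean over cells, which weights each cell alike, its macrometastasis log2 ratio was -0.13. Lgals1, galectin-1, was higher in Tim3-KD micrometastasis (1.28 [1.19 to 1.37]) and lower in macrometastasis (0.797 [0.737 to 0.861]). Of 9 measured genes 2 lay above and 4 below 1 in micrometastasis (10.8% and 17.1% over all genes), and 3 above and 2 below in macrometastasis (11.3% and 9.74%).

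Receptors of the NK family on CD8 T cells were mostly lower in Tim3-KD micrometastasis and higher in Tim3-KD macrometastasis. Klrd1, the CD94 chain that pairs with NKG2A, measured 747 and 550.0 CPM in Ctrl and Tim3-KD micrometastasis and 387 and 569.6 in macrometastasis. Klrd1, Klrc1 (NKG2A) and Klre1 had ratios of 0.736, 0.669 and 0.560 in micrometastasis, each with its interval below 1. Their ratios of 1.47, 1.41 and 1.88 in macrometastasis had intervals above 1. Klrk1, the activating receptor NKG2D, lay between 246 and 286 in the 4 metastasis libraries and differed at neither site. Of the 5 genes measured, 3 lay below 1 in micrometastasis (17.1% over all genes) and 3 above 1 in macrometastasis (11.3%). Members with 3 or more UMIs of the NK and ILC1 markers, among which Klre1 counts, went the same way as these ratios (23.9% and 12.5%, then 9.64% and 20.6%), and their part in the result was not tested.

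Over all lists, 12 of 92 genes with 30 or more UMIs at both sites had Tim3-KD over Ctrl intervals on opposite sides of 1 in micrometastasis and macrometastasis, and over all 589 genes compared the share was 7.3%. The 12 included Nkg7, Xcl1, Ctla4, Cd27, Bcl2, Cxcr6, Lgals1 and the NK receptors Klrc1, Klrd1 and Klre1, and the difference between sites was not tested. An interval off 1 was seen for 45 of 105 listed genes in micrometastasis, where 10.8% of all 1059 genes lay above and 17.1% below 1. In macrometastasis it was seen for 48 of 99, against 11.3% above and 9.74% below over 914 genes. Leaving out the member with most UMIs of the gene from Tim3-KD, from Ctrl or from both, an alternative chosen after seeing the data, brought 11 and 13 of these to an interval that held 1 under at least 1 of the 3, and none to the other side. Among those named here they were Prf1 and Tnfsf10 at both sites, Nkg7, Spp1, Nr4a1, Irf8, Stmn1 and Atf3 in micrometastasis, and Xcl1, Serpinb6b, Ifi27l2a and Hspa1a in macrometastasis.

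**Figure D3:**
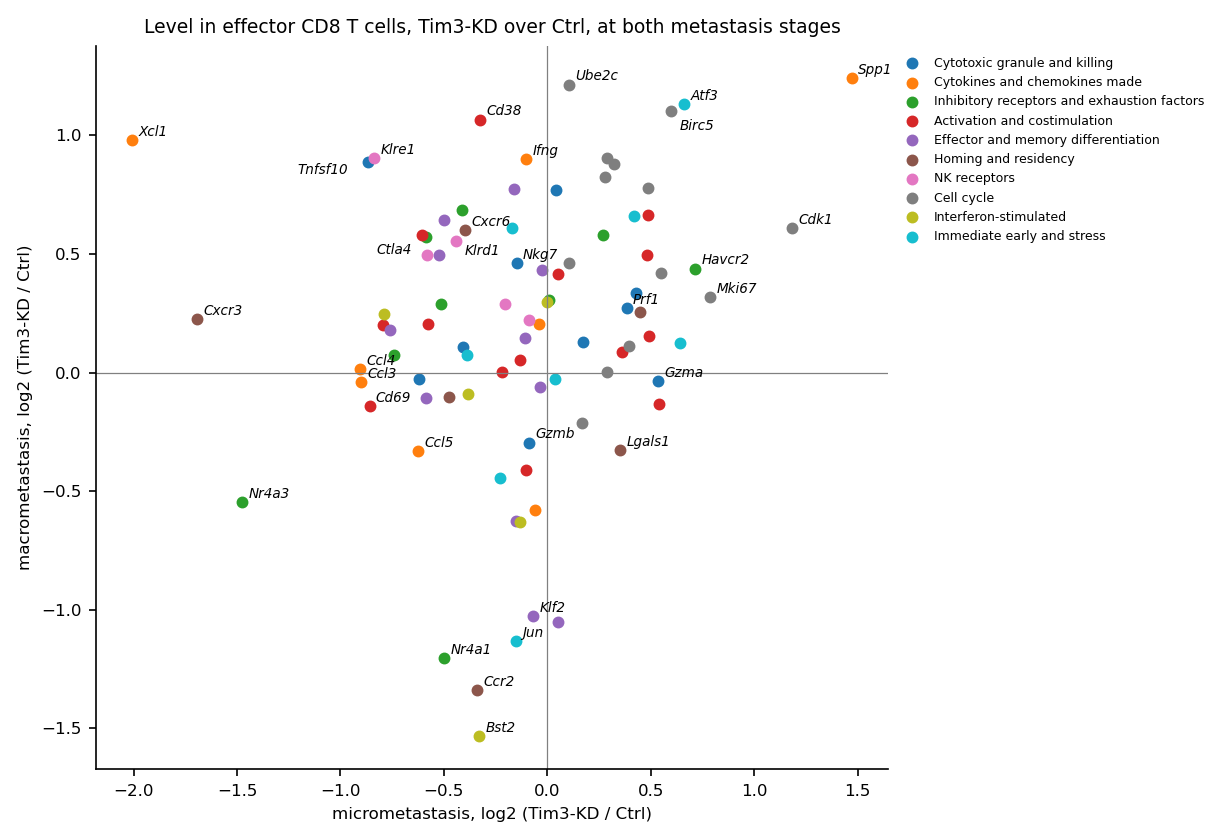
Tim3-KD over Ctrl ratio of listed genes in effector CD8 T cells, on a log2 scale, in micrometastasis (x axis) and macrometastasis (y axis), coloured by gene list. Each point is a gene with 30 or more UMIs at both sites, and Hspa1a and Hspa1b lie off the plot and are left out. Xcl1 (0.248 and 1.98), Cxcr6, Ctla4, Klrd1 and Klre1 sit left of 0 and above 0, and Prf1, Mki67, Birc5 and Cdk1 lie right of 0 and above 0.

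Part of the members were dividing. Mki67 (chromosome 7, 135689784 to 135716361, minus strand), a protein of all cycling phases, measured 148 and 257 CPM in Ctrl and Tim3-KD micrometastasis and 125 and 156 in macrometastasis. Tim3-KD was higher in micrometastasis (1.73 [1.34 to 2.26]), and the interval in macrometastasis held 1 (1.25 [0.960 to 1.63]). Cdk1, the mitotic kinase, gave 2.30 [1.45 to 3.78] and 1.54 [0.928 to 2.59]. Birc5, survivin, was higher in Tim3-KD at both sites (1.52 [1.20 to 1.94] and 2.16 [1.62 to 2.89]). Ube2c, which drives exit from mitosis, gave 1.08 [0.871 to 1.34] and 2.33 [1.77 to 3.10]. In Ctrl micrometastasis 8 of 88 members had a Ube2c UMI and 1 held 37.1% of them, and without it the micrometastasis ratio was 1.66 [1.30 to 2.15]. Of 14 cell-cycle genes measured in micrometastasis 6 lay above and none below 1, and of 13 in macrometastasis 6 above and none below, where 10.8% and 11.3% of all genes lay above. The list's median log2 ratios were 0.31 and 0.61. Leaving out members with other cell types' markers left 46 of 83 Ctrl macrometastasis members and raised the macrometastasis log2 ratio of Mki67 to 2.56, of Birc5 to 3.27, of Stmn1 to 2.18 and of Top2a to 2.13, while that of Top2a in micrometastasis was -0.31 in place of 0.28.

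A member was called cycling with 3 or more UMIs over 12 cell-cycle genes after thinning to 1500 UMIs. This held for 12 of 88 members (13.6% [7.25 to 22.6]) of Ctrl and 20 of 128 (15.6% [9.81 to 23.1]) of Tim3-KD micrometastasis. In macrometastasis it held for 8 of 83 (9.64% [4.25 to 18.1]) and 13 of 97 (13.4% [7.33 to 21.8]). Tim3-KD minus Ctrl was 1.99 points [-8.70 to 11.8] in micrometastasis and 3.76 points [-6.66 to 13.8] in macrometastasis, both intervals holding 0. Without thinning the shares were 23.9%, 32.0%, 21.7% and 30.9%. In the same libraries naive-like CD8 T cells had 2 of 44, 1 of 25, 2 of 48 and 0 of 59 cycling cells, other T cells 4.38% to 5.92% and B cells 0 to 2.05%. NK-like cells, the other cytotoxic class, had 2 of 159 (1.26% [0.153 to 4.47]) and 4 of 27 (14.8% [4.19 to 33.7]) in Ctrl and Tim3-KD micrometastasis. In macrometastasis they had 13 of 170 (7.65% [4.13 to 12.7]) and 7 of 64 (10.9% [4.51 to 21.2]), so that in all but Ctrl micrometastasis their intervals overlapped those of members.

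Effector genes were compared between cycling members and the rest. Gzma was at 3835 CPM in cycling and 1399 in other members of Ctrl micrometastasis, at 3776 and 2716 in Tim3-KD micrometastasis, and at 3739 and 381 in Tim3-KD macrometastasis. The ratios were 2.74, 1.39 and 9.82. In Ctrl micrometastasis 4 of the 12 cycling members had a Gzma UMI, and 1 of them held 47.7% of all Gzma of the library. Without the member of most Gzma in each library, an alternative chosen after seeing the data, cycling members of Ctrl micrometastasis stood lower than the rest (472 against 1399 CPM, ratio 0.338 [0.260 to 0.434]), and the other ratios were 1.20 [1.10 to 1.31] and 7.42 [6.40 to 8.63]. Ifng, Xcl1 and Ccl4 were lower in cycling members, with and without the member of most UMIs of the gene: the ratio was 0.352, 0.488 and 0.307 for Ifng, 0.0998, 0.410 and 0.198 for Xcl1, and 0.257, 0.326 and 0.486 for Ccl4. Ccl5 was lower in cycling members of both micrometastasis libraries (0.287 and 0.315) while the ratio in Tim3-KD macrometastasis was 1.12, or 0.806 without the member of most Ccl5. Cycling members were deeper, with medians of 12077, 11961 and 14474 UMIs. Ctrl macrometastasis had too few cycling members for this split.

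Interferon-stimulated genes differed in macrometastasis. Bst2, tetherin, measured 215 CPM in Ctrl and 73.8 in Tim3-KD macrometastasis, a ratio of 0.344 [0.255 to 0.458]. Irf7, the factor that amplifies type I interferon, was at 58.3 and 17.6 (0.302 [0.160 to 0.543]). Ifi27l2a, by contrast, was at 491 and 604 (1.23 [1.08 to 1.40]). In micrometastasis Bst2 (119 and 95.2), Isg15 (118 and 108) and Ifi27l2a (958 and 958) did not differ beyond counting error. Of 7 genes measured in macrometastasis 1 lay above and 3 below 1 (11.3% and 9.74% over all genes), with a median log2 ratio of -0.63, and of 6 in micrometastasis none above and 1 below, near the 17.1% below over all genes. The third gene below 1 in macrometastasis was Cxcl10 (1 against 29 UMIs), of which 1 Ctrl member held 75.9%, and without it 8 UMIs remain, under the filter. Bst2 and Irf7 are also expressed by plasmacytoid dendritic cells and myeloid cells. The level of the 5 dendritic markers measured there, mostly H2-Ab1 of MHC class II, was 252 CPM in Ctrl and 39.7 in Tim3-KD macrometastasis members. In Ctrl 1 member held 64.9% of the H2-Ab1 UMIs. The part of such markers' cells in the result was not tested.

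Among immediate early and stress genes, the heat shock genes Hspa1a and Hspa1b were nearly absent from Ctrl micrometastasis (2 UMIs each, 3.57 CPM). They measured 147 and 62.7 in Tim3-KD micrometastasis, 65.8 and 28.5 in Ctrl and 29.7 and 18.7 in Tim3-KD macrometastasis. The ratio in micrometastasis was 41.1 [11.2 to 343] for Hspa1a and 17.6 [4.65 to 149] for Hspa1b, and that of Hspa1a in macrometastasis 0.452 [0.274 to 0.732]. The latter rested on few cells: 1 member held 45.3% of the 53 Ctrl UMIs and 1 held 74.1% of the 27 Tim3-KD UMIs. It was 0.821 [0.467 to 1.44] without the Ctrl member, 0.118 [0.0451 to 0.260] without the Tim3-KD member and 0.213 [0.0789 to 0.498] without both. Jun, part of the AP-1 factor, was at 155 and 140.0 in micrometastasis (0.903 [0.681 to 1.20], or 0.604 [0.441 to 0.826] without the Tim3-KD member of most Jun) and was lower in Tim3-KD macrometastasis (257 and 117, ratio 0.455 [0.356 to 0.577]). Atf3 was higher in Tim3-KD at both sites (1.60 [1.08 to 2.40] and 2.22 [1.36 to 3.73]). Each library was prepared once, so preparation and condition cannot be told apart here. Of 15 genes measured in micrometastasis 4 lay above and 1 below 1 (10.8% and 17.1% over all genes), and of 10 in macrometastasis 3 above and 3 below (11.3% and 9.74%).

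Macrometastasis was set against micrometastasis within Ctrl, where 8 of 10 killing genes were lower at day 12. The ratio of macrometastasis over micrometastasis was 0.581 for Gzma, 0.627 for Gzmb, 0.607 for Prf1, 0.474 for Nkg7, 0.451 for Ccl5, 0.571 for Ifng and 0.543 for Ctla4, each with its interval below 1. That of Gzma leans on 1 Ctrl micrometastasis member, which held 47.7% of the Gzma UMIs of its library. Whether Gzma stays below 1 without that member was not tested. The interval of Havcr2 held 1 (0.991 [0.622 to 1.60]), and Irf8 was higher at 2.05 [1.47 to 2.89]. Some markers of other cell types were also higher in the Ctrl macrometastasis members: the immunoglobulin chain Igkc by 11.1 [4.14 to 42.1] and Siglech with 20 against 0 UMIs. H2-Ab1 of MHC class II was higher by 9.92 [5.53 to 19.6], with 64.9% of its macrometastasis UMIs in 1 member. The monocyte and macrophage list, which holds Lyz2 in macrometastasis only, reached 3 UMIs in 39.8% against 13.6% of members. Within it Ccr2 (86 against 38 UMIs) and Ly6c2 (77 against 29), which T cells can express, were higher. Cd14 was lower (0.398 [0.178 to 0.846]), and the intervals of C1qa (0.586) and C1qb (1.04) held 1. Csf1r and Clec4f fell under the UMI filter. H2-Eb1, Mef2c and Mpeg1 were among the 8 genes of highest ratio, and the part of other cell types in the differences was not tested. Of 10 killing genes 8 lay below 1 and none above, of 8 cytokines 7 and none, and of 13 cell-cycle genes 8 and none. Over all 632 genes compared, 21.2% lay below and 8.23% above, with 5.85% at least 2-fold higher and 6.01% at least 2-fold lower, and the median log2 ratio was -0.21. In Tim3-KD the same comparison gave ratios below 1 for Gzma (0.391), Gzmb (0.543), Prf1 (0.562), Nkg7 (0.723) and Ccl5 (0.552), but above 1 for Xcl1 (4.83 [3.88 to 6.06]), Ccl3 (1.48 [1.21 to 1.80]) and Ccl4 (1.42 [1.29 to 1.55]). Markers of other cell types were lower in these Tim3-KD macrometastasis members: C1qa of macrophages with 4 against 131 UMIs (0.0300 [0.00806 to 0.0787]), C1qb with 7 against 108, Csf1r with 1 against 34, the neutrophil elastase gene Elane with 3 against 100, and H2-Ab1 at 0.221 [0.142 to 0.333]. Their part in the differences was not tested. The intervals of Ifng (1.14 [0.995 to 1.32]) and Ctla4 (1.21 [0.999 to 1.47]) held 1. Of 10 killing genes 4 lay below 1 and none above there, and of 8 cytokines 4 below and 3 above, against 19.2% below and 11.6% above over 749 genes. Site and day go together in these comparisons and cannot be told apart, and the cut-offs sit on scales set at each site.

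Of the 8 genes of highest ratio in Tim3-KD micrometastasis, 7 had most of their UMIs in single cells, and the other was Hspa1a, described above, with 29.0% in its top member. Elane, Prtn3 and Ctsg, proteases of neutrophil precursors, had 100 against 0, 313 against 10 and 204 against 3 UMIs in Tim3-KD and Ctrl, and 94.0%, 94.9% and 91.7% of the Tim3-KD UMIs lay in the same member, a cell of 67818 UMIs. Pf4 and Vcam1 were each found in 1 member of Tim3-KD micrometastasis and none of Ctrl. H2-DMb1 and H2-Eb1, of MHC class II antigen presentation, lay to 71.9% and 69.0% in 1 member. In macrometastasis the lowest ratios included Mpeg1 (1 against 40 UMIs), Ccl6 (3 against 72) and Mef2c (0 against 35), genes of myeloid and B cells, and 90.3% of the Ctrl Ccl6 lay in 1 member. These members met the rule on T cell genes and stay among the 422.

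Among the 8 genes of lowest ratio in Tim3-KD micrometastasis no member held more than 28.6% of a gene's UMIs in either library. Ltb, lymphotoxin beta, summed to 287 UMIs over Ctrl and 58 over Tim3-KD members, or 512 and 65.0 CPM, a ratio of 0.127 [0.0940 to 0.169]. Trim5 was at 52 and 12 UMIs, Dgkd at 26 and 9, and Xcl1, found in 19 of 88 Ctrl members with 24.6% of its UMIs in 1, was also among the 8 lowest. The genes of highest ratio in Tim3-KD macrometastasis included Pou2f2 (3.65 [1.73 to 8.60]), Igflr1 and Nrgn (66 and 206 UMIs, 2.77 [2.09 to 3.71]). Without the members that held other cell types' markers, a set chosen after the values were seen, the highest in micrometastasis after the heat shock genes included AA467197 (2.57 [1.80 to 3.74]), the histone H1f5 (2.50 [2.02 to 3.11]) and Trbc1, a constant segment of the T cell receptor beta chain that the rule did not use (2.43 [2.17 to 2.73]). Trbc1 was at 840.5 CPM in the 74 Ctrl and 2043 in the 105 Tim3-KD members of that set.

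Compared with other lymphocytes of the same library, members held more Gzma and Prf1 than naive-like CD8 T cells in all libraries. Gzma was at 0 to 804 CPM in naive-like CD8 T cells, at 86.7 to 1363 in other T cells and at 6173 to 13514 in NK-like cells over the 6 libraries, against 1106 to 3075 in members. In each library Gzma of members lay above naive-like and other T cells and below NK-like cells, with intervals that excluded 1. Gzmb showed the same order against T cells, at 541 to 2174 in members and 9.08 to 364 in naive-like and other T cells. Against NK-like cells (929.9 to 1967) Gzmb lay above in 2 libraries and below in 3. Nkg7 lay above NK-like cells in 1 and below in 4, Ctsw above in 1 and below in 3, and Cst7 above in 3 and below in none. Prf1 lay above other T cells in 5 of 6 libraries and below NK-like cells in 5 of 6. Eomes, a factor of NK cells and some memory CD8 T cells, was at 6.96 to 62.5 in members and at 153 to 263 in NK-like cells.

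Havcr2 was found mainly in members among these lymphocytes. Its level was 0 to 6.33 CPM in other T cells and 0 to 8.88 in NK-like cells. Members lay above both in 5 of 6 libraries, all but Tim3-KD adjacent tissue, where members had no UMI. Naive-like CD8 T cells were at 0 to 7.10 except in Tim3-KD micrometastasis, where they reached 50.3, and members lay above them in 4 of 6 libraries. Il7r and S1pr1 were lower in members than in naive-like CD8 and other T cells in all 6 libraries. Cxcr6 lay above NK-like cells in 5 libraries and above other T cells in 4.

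Of 638 genes with enough UMIs in each class, 5 (0.784%) were at least 2-fold higher in members than in naive-like CD8 T cells, other T cells and NK-like cells in all 4 metastasis libraries. They were S100a4, Cxcr6, Cdk6 (a kinase of cell-cycle entry), Serpinb6a (a protease inhibitor) and AA467197, and were named after their values were seen. Cdk6 measured 111, 125, 90.6 and 96.9 CPM in members and at most 46.6 in the other classes. AA467197 measured 80.2, 190.4, 96.8 and 92.5 against at most 29.2. Cxcr6 reached 154 in other T cells, against 232 or more in members.

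**Figure D4:**
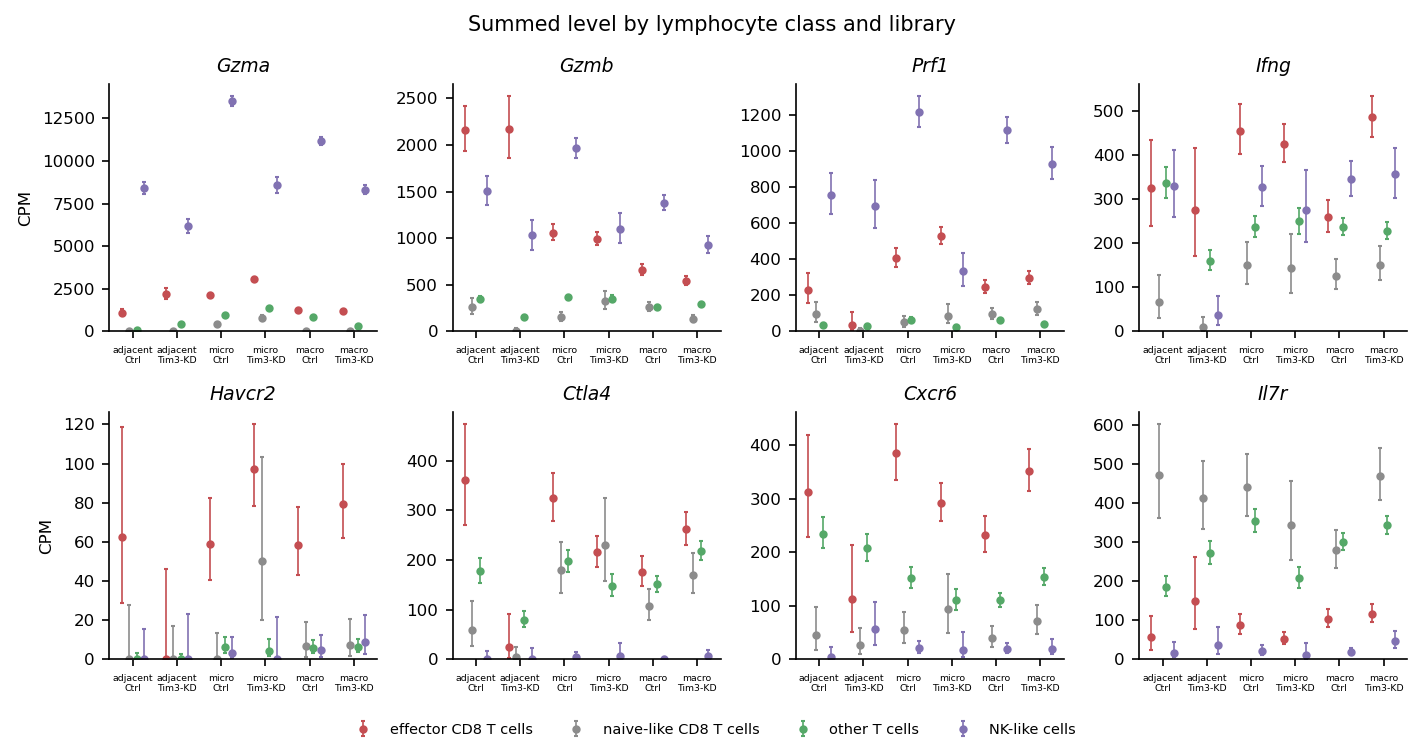
Levels of 8 genes in CPM, on linear axes from 0, in effector CD8 T cells (red), naive-like CD8 T cells (grey), other T cells (green) and NK-like cells (purple) of each of the 6 libraries, with Poisson 95% intervals. Gzma runs highest in NK-like cells (6173 to 13514), Havcr2 is highest in effector CD8 T cells in all libraries but Tim3-KD adjacent tissue, and Il7r is highest in naive-like CD8 or other T cells.

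Members with and without a Havcr2 UMI were set side by side within each metastasis library. There were 20 with and 68 without in Ctrl micrometastasis, 50 and 78 in Tim3-KD micrometastasis, 16 and 67 in Ctrl macrometastasis and 32 and 65 in Tim3-KD macrometastasis. Cells with a UMI were deeper, at medians of 6449 to 14274 UMIs against 3721 to 6340. The split was therefore repeated among members of at least 5000 UMIs, a choice made after seeing the data, where depths were closer in micrometastasis (8635 against 8915 and 8403 against 8223) but not in macrometastasis (15099 against 8830 and 13769 against 7655).

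Prf1 was higher in members with a Havcr2 UMI in all 4 libraries, at 811 against 215, 692 against 353, 465 against 136 and 436 against 162 CPM. The ratios were 3.76 [2.85 to 5.00], 1.96 [1.61 to 2.40], 3.41 [2.54 to 4.61] and 2.69 [2.05 to 3.56], and 5.21, 2.22, 3.32 and 2.48 among members of at least 5000 UMIs. Without the member of most Prf1 in each library they were 3.28, 1.63, 2.64 and 2.32. Gzma went the other way, at 239 against 3010, 2376 against 3845, 48.0 against 1832 and 507 against 1891. Its ratios were 0.0793, 0.618, 0.0262 and 0.268, 0.0877, 0.484, 0.0328 and 0.213 among the deeper members, and 0.150, 0.478, 0.0309 and 0.364 without the member of most Gzma. A Gzma UMI was present in 15%, 20%, 12.5% and 18.8% of members with Havcr2 and in 41.2%, 35.9%, 46.3% and 30.8% of those without. Gzmb had no common direction (0.766, 1.04, 0.673 and 1.23), nor did Ctla4 (1.48, 0.656, 1.36 and 0.912) or Tox (1.34, 0.862, 1.22 and 0.925). Without thinning, a Gzmb UMI was present in 75%, 86%, 81.2% and 81.2% of members with Havcr2 against 66.2%, 60.3%, 65.7% and 47.7% of those without, and a Ctla4 UMI in 95%, 70%, 93.8% and 87.5% against 57.4%, 64.1%, 46.3% and 66.2%. Members with Havcr2 were deeper, which by itself raises such shares, and the part of depth in them was not tested. Tnfrsf9 was at 2.02, 1.02, 4.00 and 3.63.

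Of 350 genes with enough UMIs, 3 (0.857%) were at least 1.5-fold higher with Havcr2 in all 4 libraries, namely Prf1, Nrgn (neurogranin, 1.89, 3.61, 3.02 and 3.05) and Cdk6 (1.64, 1.56, 2.26 and 1.67). Without the member of most UMIs of the gene in each library, Nrgn in Ctrl micrometastasis was at 1.07 and Cdk6 at 1.20, 1.41, 1.58 and 1.47, so that Prf1 alone of the 3 stayed over 1.5-fold in all 4. At least 1.5-fold lower were 18 (5.14%), among them Gzma, Bcl2 (0.328, 0.308, 0.435 and 0.368), Klf2 (0.247, 0.514, 0.0799 and 0.125, with 0.833 in Tim3-KD micrometastasis without its top member), Il7r, Ctsw and the T and NK cell antigen Cd7. Among the deeper members 3 of 246 genes (1.22%) were higher and 6 (2.44%) lower, the latter Bcl2, Cd7, Ctsw, Gzma, Jun and Rasal3.

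**Figure D5:**
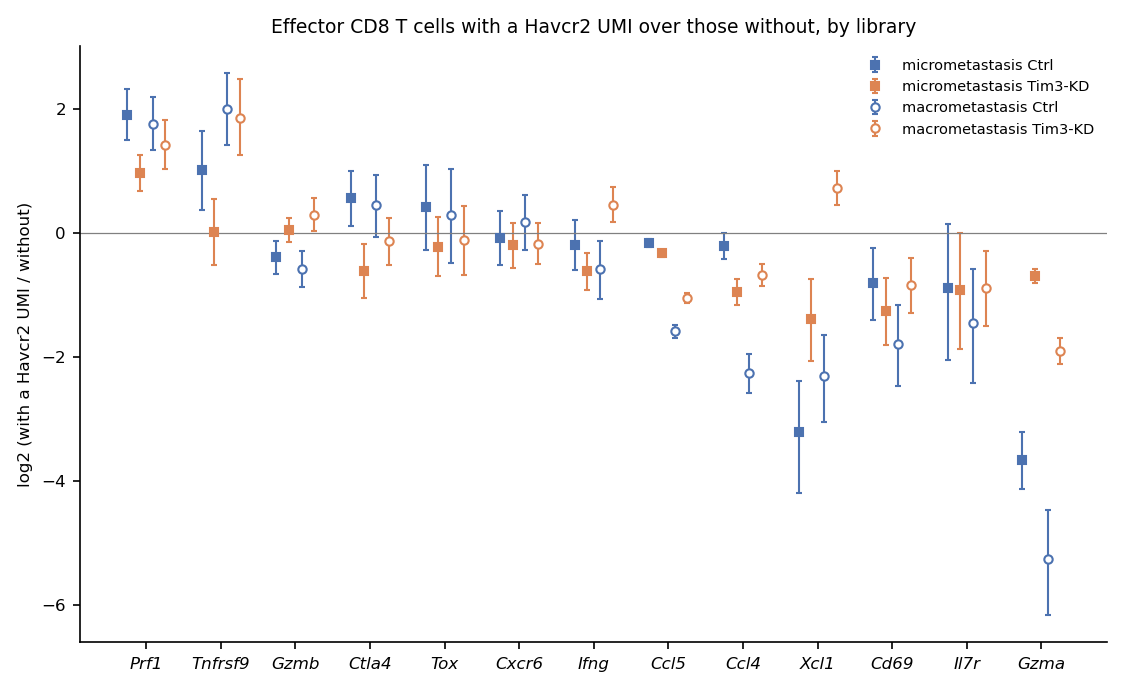
Level in effector CD8 T cells with a Havcr2 UMI over that in those without, on a log2 axis, for 13 genes in the 4 metastasis libraries. Squares are micrometastasis and open circles macrometastasis, blue Ctrl and orange Tim3-KD, and lines are 95% intervals. Prf1 lies above 0 in all 4 libraries (ratios of 1.96 to 3.76) and Gzma below 0 (0.0262 to 0.618).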

How the data were processed

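Single-cell libraries of sorted CD45+ liver cells were analysed from the deposited matrices, 1 per site. Per the methods and labels, the authors trimmed reads with Trim Galore 0.4.3, mapped them with STAR 2.7.7a to GRCm38, counted UMIs over exons and introns, kept cells of over 1000 UMIs, and removed doublets with scrublet. The values the authors deposited were scaled scores capped at 10, with total UMIs regressed out (a step read from the values and not stated in the methods, on which the recovered UMIs rest), computed over the Ctrl and Tim3-KD cells of a site jointly. No doublet call was repeated here. Each matrix held variable genes only (4486, 2669 and 2643). Scores were turned back into UMIs: 99.9972% or more lay within 0.05 of a whole number, and at most 0.161% lay at the cap and are lower bounds. On simulated data of 4486 genes in 2345 cells, 100% of values were returned.

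The design had named counts, and the recovered UMIs took their place. Ratios were taken for genes with 30 or more UMIs over both libraries, with 0.5 added to a sum for log2 ratios. The members and gene lists were chosen with earlier results of these data known. Named genes were those of fixed lists (killing, cytokines, inhibitory receptors, activation, differentiation, homing, NK receptors, cell cycle, interferon, immediate early and stress) and, for each of 3 comparisons, the 8 genes of highest and lowest ratio, leaving out mitochondrial, ribosomal, haemoglobin, immunoglobulin and receptor variable genes. T cell receptor variable segments were not analysed here, and 1 gene of the homing list is counted but not reported or plotted. Other T cells had a CD8 mean at or below 0. NK-like cells had a CD3 mean at or below 0.5 and NK receptor genes over 1. Gene positions came from GENCODE M21. Alternatives were other cut-offs, a rule on UMIs, deeper cells, cells without other types' markers, other denominators, scalings and UMI filters, and leaving out single cells. Python 3.11.15, numpy 2.4.6, scipy 1.17.1 and pandas 2.3.3 were used.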

Additional observations from a re-analysis of the deposited data

Results flagged for a closer look

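Of 92 listed genes with 30 or more UMIs at both metastasis sites, 12 had Tim3-KD over Ctrl intervals on opposite sides of 1 in micrometastasis and macrometastasis. Over all 589 genes compared at both sites the share was 7.3%. The difference between the sites was not tested, since each ratio rests on 1 library per condition. Lower in Tim3-KD micrometastasis and higher in Tim3-KD macrometastasis were Nkg7 (0.903 and 1.38), Tnfsf10 (0.548 and 1.88), Xcl1 (0.248 and 1.98), Ctla4 (0.666 and 1.49), Cd27 (0.657 and 1.5), Bcl2 (0.695 and 1.41), Cxcr6 (0.759 and 1.52), Klrc1 (0.669 and 1.41), Klrd1 (0.736 and 1.47) and Klre1 (0.560 and 1.88). The reverse held for Lgals1 (1.28 and 0.797) and Hspa1a (41.1 and 0.452). In macrometastasis 1 member held 45.3% of the Ctrl Hspa1a UMIs, and without it the ratio was 0.821 [0.467 to 1.44]. Without the top members, intervals also held 1 for Nkg7 and Tnfsf10 in micrometastasis and for Xcl1 and Tnfsf10 in macrometastasis. In micrometastasis Nkg7 reversed to log2 ratios of 0.0506, 0.0513 and 0.0211 without members holding other cell types' markers, as a mean over cells and when centred on the trimmed mean. In macrometastasis Nkg7 stood at log2 ratios of 0.16 and Xcl1 at 0.12 with the rule set on UMIs, and Xcl1 at 0.48 without the member with most UMIs of it. The median log2 ratio of all genes was -0.18 in micrometastasis and 0.03 in macrometastasis.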

How the results depend on the processing

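Each group was 1 library of 1 pool, so no replicate error is known, the intervals cover counting error only, and the depth of 80019 to 907726 UMIs per library's members limits what is seen, most in adjacent tissue. The labels number no replicates and each site held 1 library a condition, so libraries were not paired within a site, and a fit of condition over the 3 sites with site as a block was not made. For 40 genes, 722 ratios were recomputed: 589 stayed within the original interval, 122 left it in the same direction or with an original interval that held 1, and 11 reversed. Log2 ratios that reversed were, in micrometastasis, Nkg7 (-0.15) at 0.0506 without members holding other cell types' markers, 0.0513 as a mean over cells and 0.0211 when centred, and Irf8 (0.54) at -0.0164 with the rule on UMIs and -0.246 without those members. In macrometastasis, Prf1 (0.27) was -0.246 and Ifng (0.90) -0.0255 with the rule on UMIs, and S100a4 (0.25) was -0.133 as a mean over cells. Without the member of most UMIs of the gene, chosen after seeing the data, log2 ratios of cycling over other members reversed to -1.56 for Gzma in Ctrl micrometastasis and -0.311 for Ccl5 in Tim3-KD macrometastasis, and that of Gzmb with over without Havcr2 in Tim3-KD macrometastasis to -0.100. As a share of T cells the Tim3-KD minus Ctrl difference in points was 13.6 in micrometastasis, -0.493 in macrometastasis and -3.72 in adjacent tissue. The number of genes at least 2-fold higher in Tim3-KD micrometastasis was 83, and counted anew it was 16 without members holding other cell types' markers, 213 at a filter of 10 UMIs and 24 at 100 UMIs. The 86 lower became 224 at 10 UMIs, 13 at 100 and 57 when centred. In macrometastasis the 34 higher became 84 with the rule on UMIs, 53 without those members, 94 at 10 UMIs, 12 at 100 and 56 as a mean over cells, and the 64 lower became 33, 203 and 20 without those members, at 10 and at 100 UMIs. For Ctrl macrometastasis over micrometastasis the 37 higher became 23 with the rule on UMIs, 12 without those members, 126 at 10 UMIs and 10 at 100, and the 38 lower became 58, 99 and 9 without those members, at 10 and at 100 UMIs and 23 when centred. Except for the UMI filters and left-out members, which change what is counted, the cause was not tested.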
